A study of Mus musculus with 6 samples.

Results

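The genes described here are 24 genes whose normalized counts were clearly higher in the tibialis anterior (TA) muscle of iMS*Bmal1*-/- mice than of iMS*Bmal1*+/+ mice, the controls. They were selected on the measured values of this same comparison: a mean of at least 50 normalized counts over the 6 libraries, every iMS*Bmal1*-/- library above every iMS*Bmal1*+/+ library, and an iMS*Bmal1*-/- mean at least 1.6 times the iMS*Bmal1*+/+ mean. Of the 52636 genes in the tables, 2565 reached the level and 28 of these met the other criteria, which is 1.09% of the 2565. Symbols of the mitochondrial genome and 8 listed symbols were then left out, which removed 0 and 4 genes. Because the values of the 24 genes chose them, their levels are a description, and nothing is read from how many of them passed a test.

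The study examined the clock of adult skeletal muscle by deleting *Bmal1* there, and 3 libraries of total RNA were sequenced for each genotype. All mice were male C57BL/6 animals that carried floxed *Bmal1* and an inducible Cre under the human skeletal actin promoter (HSA-MCM), so that recombination is driven in skeletal muscle and not in the other cells of the tissue. At 12 to 16 weeks of age, 5 daily injections were given, of 2 mg tamoxifen to the iMS*Bmal1*-/- mice and of vehicle, 15% ethanol in sunflower seed oil, to the controls. TA muscles were collected 5 weeks later, and the clock time of collection was not used here. Tamoxifen was given only to the iMS*Bmal1*-/- mice, so that the genotype and the drug cannot be told apart. Total gene counts per library were 2091912, 1997203 and 2716079 for the controls (median 2091912) against 2403438, 1616290 and 2068657 for the iMS*Bmal1*-/- mice (median 2068657). The 24 genes took 0.127, 0.121 and 0.124% of the counts in control muscle against 0.265, 0.282 and 0.263% in iMS*Bmal1*-/- muscle.

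BMAL1 is a transcription factor of the circadian clock. Together with CLOCK it binds E-box sequences and drives clock genes whose products feed back on it, and in skeletal muscle it also drives genes outside the clock.

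*Bmal1* itself, listed as *Arntl*, had 5, 4 and 11 counts in the controls against 13, 5 and 5 in the iMS*Bmal1*-/- mice. With so few counts the genotypes cannot be checked on it. *Gm45355*, whose exons overlap those of *Arntl* by 33 bp on the opposite strand, had 94, 71 and 109 counts against 62, 42 and 93. Its normalized counts overlapped between the genotypes, so it does not separate them either. The libraries were made with a stranded kit, and the strand setting of the counting is not given in the sources used here. On the mitochondrial chromosome, *mt-Nd6* on the minus strand had 416836 counts over the 6 libraries, whereas on the plus strand *mt-Co1* had 3861, *mt-Co2* 41 and *mt-Co3* 40, although the 180668 of *mt-Nd5* are on the plus strand as well. Of the fast fiber genes, *Atp2a1* had 3024 normalized counts on average and *Rabep2*, which faces it over 763 bp, 270098, and *Tnnc2* had 329 and *Ube2c*, which faces it over 592 bp, 136292. The facing gene was above in every library in all 4 fast fiber pairs, and in 23 of 40 pairs over all lists used below. In these fast fiber pairs most counts lie on the opposite strand. Other genes had more counts than their facing gene, such as *Cryab* (536 normalized counts on average, *Hspb2* 3.13) and *Pfkm* (190, *Senp1* 4.46). Whether the stranded kit was counted with the opposite setting was not tested. Genes are therefore named as they were counted, a higher count is not given as more of the named gene's own transcript, and each of the 24 is set beside the gene annotated on the opposite strand. In bulk muscle, fewer cells of a type and less RNA per cell cannot be told apart.

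The largest ratios were on *Mboat1* and *Vps13c*, a pair of genes with roles at membranes. *Mboat1* (ENSMUSG00000038732), on the plus strand of chromosome 13 from 30136489 to 30246717, encodes an acyltransferase that attaches fatty acids to lysophospholipids. It had 23, 12 and 24 counts in control muscle against 145, 99 and 98. Its normalized counts were 18.5 ± 5.47 (SD, n = 3) and 115 ± 18.4 (SD, n = 3), a ratio of 6.20, and the lowest iMS*Bmal1*-/- library was 3.99 times the highest iMS*Bmal1*+/+ library. *Vps13c* (ENSMUSG00000035284), on the plus strand of chromosome 9 from 67840396 to 67995638, encodes a large protein that moves lipids between membranes at contact sites. It had 49, 30 and 23 counts against 186, 176 and 192. The means were 33.6 ± 16.2 (SD, n = 3) and 188 ± 22.9 (SD, n = 3) normalized counts, a ratio of 5.61, with iMS*Bmal1*+/+ replicate 3 lowest among the control libraries. These 2 genes stood apart from the other 22, whose ratios lay between 1.603 and 2.77.

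Kinases formed a further group by role. *Alpk2*, an alpha-protein kinase, had 41, 38 and 42 counts in control muscle against 115, 124 and 71 in iMS*Bmal1*-/- muscle, a ratio of 2.77 on normalized counts. The control libraries lay close together (38.7 ± 4.71, SD, n = 3), while the iMS*Bmal1*-/- libraries were spread (107 ± 40.8, SD, n = 3), with replicate 2 highest and replicate 3 lowest. *Hipk3*, a kinase that interacts with homeodomain proteins, had 62, 47 and 105 counts against 151, 126 and 109 (ratio 1.99). *Dapk2*, a calcium and calmodulin regulated kinase linked to cell death, had 52, 62 and 53 counts against 102, 100 and 100 (ratio 1.91). For *Hipk3* the raw counts of control replicate 3 and iMS*Bmal1*-/- replicate 3 were close, and after division by the size factors the lowest iMS*Bmal1*-/- library was 1.26 times the highest control library.

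Genes of vesicle traffic, signaling and protein turnover had ratios from 1.63 to 2.07. *Rab11b*, a small GTPase of recycling endosomes, had 47, 48 and 75 counts against 136, 87 and 105 (53.0 ± 5.79 and 109.5 ± 11.2 normalized counts, SD, n = 3, ratio 2.07). *Numb*, an endocytic adaptor that restrains Notch signaling, had 52, 49 and 26 counts against 89, 78 and 79 (ratio 1.98). Its control libraries were uneven, with replicate 3 well below the other replicates. *Arhgef17*, a guanine nucleotide exchange factor, had 143, 164 and 244 counts against 364, 242 and 267 (ratio 1.70). *Hectd2*, a ubiquitin ligase, had 132, 76 and 166 counts against 270, 188 and 244, or 116 ± 30.6 against 235 ± 7.77 normalized counts (SD, n = 3, ratio 2.02). Here the spread lay in the control group, in which replicate 2 was lowest. *Capn7*, a protease of the calpain family, had 103, 80 and 103 counts against 135, 109 and 198 (ratio 1.63), and its highest value came from iMS*Bmal1*-/- replicate 3.

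*Zcchc17* (ENSMUSG00000028772), on the minus strand of chromosome 4 from 130315383 to 130359943, encodes an RNA-binding zinc finger protein of the nucleolus. It had 767, 690 and 703 counts in control muscle against 1655, 1221 and 1269 in iMS*Bmal1*-/- muscle. Normalized, this was 694 ± 121 (SD, n = 3) and 1395 ± 149 (SD, n = 3), a ratio of 2.01. Per kilobase of exon its level was 152 normalized counts in iMS*Bmal1*+/+ and 306 in iMS*Bmal1*-/- muscle, compared with 2.06 and 11.6 for *Vps13c*, which has a far longer transcript.

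Transporters and their regulators, proteins of the cell surface and a matrix protein were also among the genes. *Slc15a3*, a peptide and histidine transporter of lysosomes that is best known from immune cells, had 62, 50 and 61 counts against 152, 80 and 71 (ratio 1.82). Its groups were separated by the narrowest margin among the 24, with the lowest iMS*Bmal1*-/- library at 1.07 times the highest iMS*Bmal1*+/+ library, and iMS*Bmal1*-/- replicate 1 was far above replicates 2 and 3. *Slc9a2*, an exchanger of sodium and protons, had 63, 90 and 77 counts against 131, 104 and 130 (ratio 1.66). *Fxyd3*, a small membrane protein of the FXYD family, had 39, 33 and 51 counts against 79, 50 and 61 (ratio 1.64). *Plet1*, a surface protein known from epithelial progenitors, had 35, 24 and 50 counts against 92, 66 and 74 (ratio 2.31), and its lowest iMS*Bmal1*-/- library was 1.80 times the highest control library. *Hspg2*, which encodes the basement membrane proteoglycan perlecan, had 56, 44 and 32 counts against 71, 70 and 76 (ratio 1.71), and iMS*Bmal1*+/+ replicate 3 was again the lowest.

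The remaining genes have no established role or do not code for protein. *1700071M16Rik* (ENSMUSG00000090307), an antisense RNA on the minus strand of chromosome 17 from 43588340 to 43592442, had 423, 353 and 850 counts in control muscle against 1469, 909 and 1327 in iMS*Bmal1*-/- muscle. The normalized means were 496 ± 158 (SD, n = 3) and 1233 ± 118 (SD, n = 3), a ratio of 2.49, and per kilobase of exon the levels were 172 and 428. Among the control libraries, replicate 3 was the highest also after normalization. The long noncoding RNA *Gm26892* had 114, 116 and 171 counts against 258, 227 and 184 (ratio 1.81). *Gm43636*, a predicted gene, had 47, 41 and 20 counts against 65, 56 and 85 (ratio 1.93). *A730049H05Rik* had 117, 119 and 161 counts against 192, 133 and 309 (ratio 1.68), and its control libraries were the most even of the 24, with a coefficient of variation of 3.17%. In iMS*Bmal1*-/- muscle it varied by 36.1%, with replicate 3 far above the other replicates. *4430402I18Rik* had 113, 99 and 145 counts against 240, 146 and 160, a ratio of 1.62.

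Just inside the fold criterion were *Gm8098* (ratio 1.61), *Gm15642* (1.605) and *Gm11096* (1.603). *Gm8098* had 34, 50 and 52 counts against 74, 59 and 74. *Gm15642*, an antisense RNA, had 39, 67 and 61 against 91, 69 and 95. *Gm11096* had 46, 33 and 63 counts against 97, 47 and 71. Just outside were *Gm38316*, whose unrounded ratio fell short of 1.6 (56.7 against 90.7 normalized counts), and *Pgam2*, the muscle form of a glycolytic mutase (1.591, 68.2 against 109). The genes on both sides of the criterion therefore differed little in ratio.

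**Figure D1:**
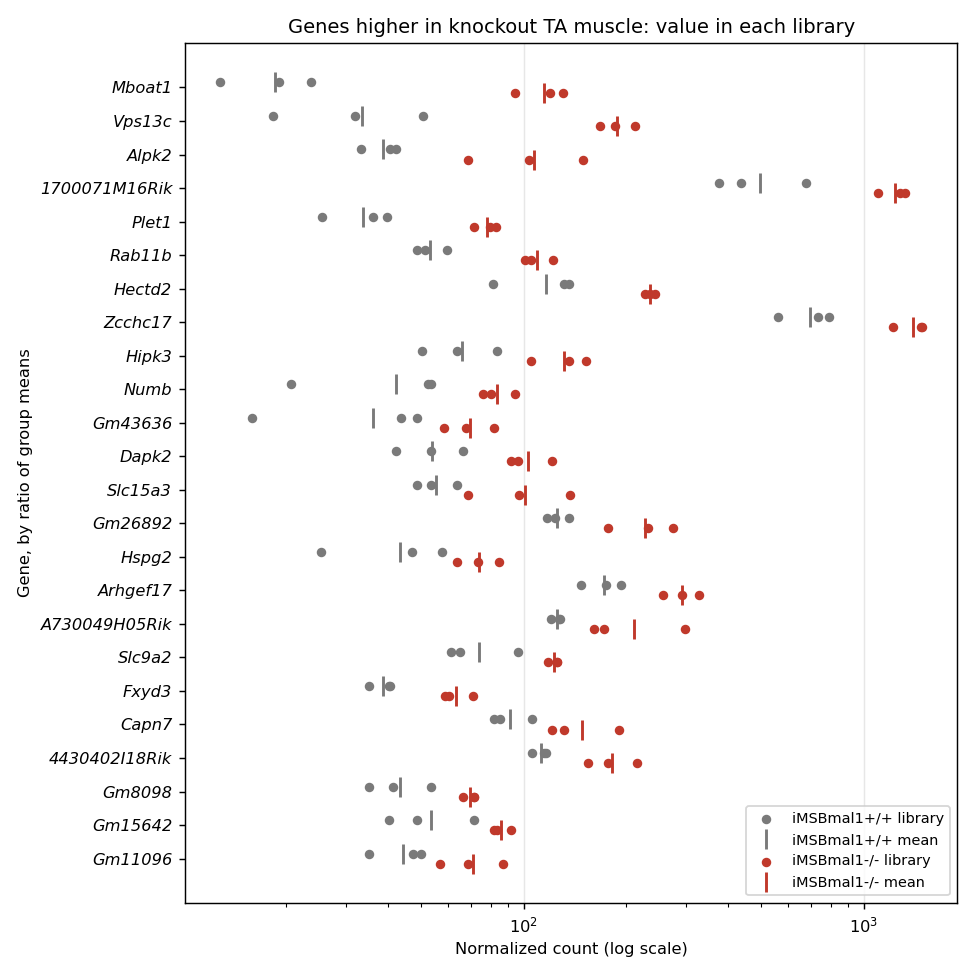
Normalized counts of the 24 genes in each of the 6 libraries on a log axis, ordered by the ratio of group means, with grey for iMS*Bmal1*+/+, red for iMS*Bmal1*-/-, dots for libraries and vertical ticks for the mean of 3 libraries. The groups do not overlap for any gene because the selection required it, and the gap is widest for *Mboat1* and *Vps13c*.

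Across the 24 genes, 8 had a ratio of at least 2 and 16 a ratio from 1.6 to under 2. The median ratio was 1.87, whereas it was 0.961 over all genes with a mean of at least 50. Fewer counts stood behind them, with a median of 79.9 against 124 normalized counts, and 15 of them had a mean under 100. They varied more between control libraries (median coefficient of variation 21.6%, from 3.17 to 48.8%) than did all genes with a mean of at least 50 (11.4%). In iMS*Bmal1*-/- muscle the median was 13.1% (from 3.31 to 38.1%) against 11.2%. The lower counts of the 24 genes were not allowed for in either comparison. The highest iMS*Bmal1*-/- value came from replicate 1 for 11 genes, from replicate 2 for 8 and from replicate 3 for 5.

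All 24 genes passed the filter on low counts. In the comparison of the genotypes by edgeR's quasi-likelihood test over 6831 genes, 1.83% of genes were past an adjusted p of 0.05, and 0.761% were past it and higher in iMS*Bmal1*-/- muscle. Of the 24, 17 were past it and 7 were not, namely *Numb*, *Gm43636*, *Hspg2*, *Fxyd3*, *Gm8098*, *Gm15642* and *Gm11096*, and because the same values chose the genes nothing is read from this count. It was 11 without iMS*Bmal1*-/- replicate 2 and 21 with the replicate block. Leaving out a library also changed which genes met the selection, and between 4 and 7 of the 24 no longer did.

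By annotation, 19 of the 24 are protein coding (79.2%, against 55.2% of genes with a mean of at least 50), 2 are antisense RNAs, and the others are a long noncoding RNA, a processed transcript and a predicted gene. Their exons were longer, with a median of 4705 bp against 2990 bp, and they spanned 39955 bp against 12033 bp. The genes lie on 13 chromosomes, with 3 each on chromosomes 9, 17 and 19. These features were not used in the selection and were described without a test.

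The gene on the opposite strand was looked up for each of the 24 on GRCm38 (mm10). Exons of 15 of them overlap exons of a gene on the other strand, and for 14 such a gene is in the tables, which is 58.3% of the 24 against 78.7% of genes with a mean of at least 50. The genes facing *Alpk2* were not among the counted genes. In all, 15 facing genes were counted, and 9 passed the filter on low counts. These facing genes were picked by position, so that their own values had no part in the selection, and 0 of the 9 passed the threshold by edgeR, DESeq2 or limma on log2(value + 1). On simulated counts, edgeR recovered 66%, DESeq2 44% and limma 66% of 2-fold changes, so this does not show that the 9 were unchanged. At an unadjusted p under 0.05 there were 4, of which 3 (*Gm17251*, *Fabp3* and *Tmem132a*) were higher and 1 (*Hectd2os*) was lower in iMS*Bmal1*-/- muscle, compared with 11.9% of all genes tested. Their median log2 fold change was -0.00, as was that of all genes tested.

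*Fabp3*, the fatty acid binding protein of heart and skeletal muscle, faces *Zcchc17* tail to tail on chromosome 4 over 81 bp, from 130315383 to 130315463. It had 25, 22 and 22 counts in control muscle against 40, 28 and 38 in iMS*Bmal1*-/- muscle, and all 3 libraries of the second group were above those of the first. Its log2 fold change came to 0.72 (standard error 0.272, edgeR adjusted p = 0.256), short of the threshold. *Zcchc17* had at least 96.8% of the counts of the pair in every library, although *Fabp3* is known as an abundant muscle transcript. Per kilobase, *Fabp3* had 27.0 and 43.1 normalized counts in control and iMS*Bmal1*-/- muscle, below the 152 and 306 of *Zcchc17*.

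*Hectd2os* faces *Hectd2* over 1834 bp on chromosome 19 and had the lowest log2 fold change of the 9. It had 108, 80 and 183 counts in control muscle against 77, 52 and 89 in iMS*Bmal1*-/- muscle, and after normalization the groups overlapped slightly. Its log2 fold change came to -0.62 (standard error 0.198, edgeR adjusted p = 0.142), and under the other settings its adjusted p ranged from 0.052 to 0.522. In the pair, *Hectd2* held 55.0, 48.7 and 47.6% of the counts in control muscle against 77.8, 78.3 and 73.3% in iMS*Bmal1*-/- muscle, a shift to which the selected gene contributed.

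*Gm17251*, a noncoding RNA that starts head to head with *Rab11b* and overlaps it by 329 bp on chromosome 17, had 40, 94 and 67 counts against 255, 72 and 73. The value of 255 in iMS*Bmal1*-/- replicate 1 stood far above the rest, and the other iMS*Bmal1*-/- libraries lay within the control range. Its log2 fold change was 1.04 (standard error 0.350, edgeR adjusted p = 0.175). It passed the threshold without iMS*Bmal1*-/- replicate 3 (1.34, adjusted p = 0.0404) and came to 0.31 without iMS*Bmal1*-/- replicate 1, the library with the most counts. Over its 13 alternatives the adjusted p ranged from 3.92e-05 to 0.791. *Amz2*, a metalloprotease that contains the whole of *Gm15642* within its span, had 34, 107 and 62 counts against 128, 64 and 99, a log2 fold change of 0.59 (standard error 0.294, edgeR adjusted p = 0.443). Without iMS*Bmal1*+/+ replicate 2, its highest control library, this became 1.21 (adjusted p = 0.0114), and over its alternatives the adjusted p ranged from 0.0114 to 0.928.

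The remaining facing genes were not past the threshold under any alternative. *Mfsd4a*, a transporter of the major facilitator family, contains *Gm26892* and covers all of its exons. It was counted far more, with 1904, 1638 and 2618 counts against 1952, 1356 and 1728, and its log2 fold change was -0.16 (standard error 0.098, edgeR adjusted p = 0.553). *Adamts9*, a secreted protease that acts on proteoglycans, contains *A730049H05Rik* and had 46, 56 and 82 counts against 49, 38 and 45 (log2 fold change -0.35, standard error 0.208, edgeR adjusted p = 0.557). *Gm46367* within *Numb* was at -0.00 (edgeR adjusted p = 0.999), and *Sh3bp5*, an adaptor that faces *Capn7* over 116 bp, was at -0.18 (edgeR adjusted p = 0.770). *Tmem132a*, which faces *Slc15a3* over 1541 bp, had 16, 6 and 8 counts against 16, 18 and 21 (log2 fold change 0.98, standard error 0.422, edgeR adjusted p = 0.347). For *Adamts9* and *Sh3bp5* every iMS*Bmal1*-/- library was below every control library after normalization, while for *Mfsd4a*, *Gm46367* and *Tmem132a* the groups overlapped. How often groups separate in this way over all genes tested was not counted, so nothing is read from it here or for *Fabp3*.

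**Figure D2:**
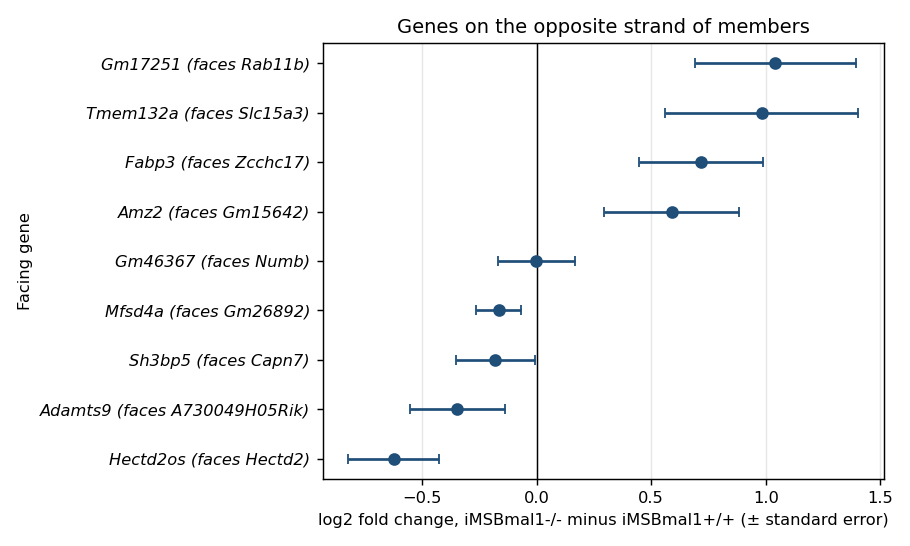
Log2 fold change of the 9 tested genes that face exons of the selected genes, in iMS*Bmal1*-/- against iMS*Bmal1*+/+ muscle, as edgeR's estimate with its standard error. The estimates run from -0.62 for *Hectd2os* to 1.04 for *Gm17251*, and 0 of the 9 passed an adjusted p of 0.05.

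Other facing genes had fewer than 10 normalized counts on average and were not tested. *Pla2g7*, which encodes a secreted phospholipase and contains *1700071M16Rik*, had 0, 1 and 2 counts against 2, 6 and 9, while *1700071M16Rik* had at least 353. *Slc1a1*, a glutamate transporter that faces *4430402I18Rik* over 2631 bp, never exceeded 4 counts in a library, and neither did *Plpp6*, *Slc8a1* or *Plet1os*. *Lgi4*, which faces *Fxyd3* over 2059 bp, had at most 6. In 9 of the 15 pairs the selected gene had more counts than the facing gene in every library, and per kilobase it had more in both groups in 10 of the 15. The selection set a lowest level for the selected genes only, which favors them in these counts.

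The annotated exons of *Gm11096* add up to only 45 bp on chromosome 17, in exons of 18 and 27 bp, and *Slc8a1* faces 8 of these bases. Its whole exonic sequence from the GENCODE transcripts, shown because the counts of this gene rest on so short a target (chr17:81441763-81441923, plus strand, intron left out), is as follows.
Gm11096: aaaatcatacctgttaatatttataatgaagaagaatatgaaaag

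Genes near the selected ones were looked at next. Where no exon faces the gene, the opposite-strand gene that overlaps its span, or the nearest within 10 kb, was read instead. *Gm37623*, a noncoding gene within the span of *Slc9a2*, had 12, 7 and 20 counts against 19, 23 and 36 (log2 fold change 1.14, standard error 0.371, edgeR adjusted p = 0.155). *Sptbn1*, a spectrin that overlaps *Gm8098*, was at 0.54 (edgeR adjusted p = 0.497) and *Ldlrad2* near *Hspg2* at 0.39 (edgeR adjusted p = 0.815). The genes opposite *Mboat1*, *Vps13c* and *Gm43636* (*Gm23206*, *C2cd4a* and *Gm42458*) reached no more than 3 counts in a library. No gene lay opposite *Hipk3*, *Dapk2* or *Arhgef17* within 10 kb.

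Within 10 kb on the opposite strand of any of the 24, 1 tested gene was past the threshold, and it was singled out after its values had been seen. *Cd6*, a receptor of T cells that lies 9668 bp from *Slc15a3* on the other strand, had 9, 6 and 6 counts in control muscle against 23, 26 and 21 in iMS*Bmal1*-/- muscle, and the groups did not overlap. Its log2 fold change came to 1.84 (standard error 0.398, edgeR adjusted p = 0.0183). All its control libraries had fewer than 10 counts, so it was not tested with at least 10 counts in every library. Nothing is read from its call. The call was lost without iMS*Bmal1*+/+ replicate 2 (adjusted p = 0.0502) or 3 (0.0921) and without iMS*Bmal1*-/- replicate 1 (0.0563) or 2 (0.136), and over its alternatives the adjusted p ranged from 0.00284 to 0.136. A window of 50 kb on either strand, chosen after the values had been seen, held 32 tested genes, of which 2 (6.25%) were past the threshold and 22 (68.8%) had a positive log2 fold change, against 1.83% and 49.8% of all genes tested. The second was *P2ry6*, a receptor for nucleotides 5522 bp from *Arhgef17* on the same strand, with 15, 18 and 48 counts against 67, 48 and 59 (log2 fold change 1.25, standard error 0.278, edgeR adjusted p = 0.0225). It lost the call in 5 of the 6 fits that left out a library, all but that without iMS*Bmal1*+/+ replicate 3. In these 5 fits its log2 fold change lay between 1.01 and 1.27. Its alternatives gave adjusted p-values between 0.000617 and 0.105.

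RefSeq promoters of 300 bases (GRCm38.p6, 250 before to 50 after the start) were found for 14 of the 24 genes and 12 of the facing genes. They were searched on both strands for the E-box CACGTG, the RORE core TAGGTCA, the D-box TTATGNAA and the MEF2 core CTATTT, which were present in 7.15, 2.61, 3.38 and 12.1% of 32851 promoters. Of the 14 promoters, 0 held any of these letters. Among the 12 facing genes, *Mfsd4a* held an E-box and *Fabp3* held the MEF2 core at 2 places. The windows are shown because they are the ones with a match beside the 24 genes, with the motif in capitals (*Fabp3*, chr4:130308488-130308787, plus strand; *Mfsd4a*, chr1:132068013-132068312, minus strand, written 5′ to 3′).
Fabp3: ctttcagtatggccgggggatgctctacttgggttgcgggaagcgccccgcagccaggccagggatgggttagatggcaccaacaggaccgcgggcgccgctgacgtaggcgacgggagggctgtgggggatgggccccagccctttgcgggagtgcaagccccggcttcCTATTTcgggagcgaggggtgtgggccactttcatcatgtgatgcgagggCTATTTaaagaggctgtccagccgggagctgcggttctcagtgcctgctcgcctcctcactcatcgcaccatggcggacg
Mfsd4a: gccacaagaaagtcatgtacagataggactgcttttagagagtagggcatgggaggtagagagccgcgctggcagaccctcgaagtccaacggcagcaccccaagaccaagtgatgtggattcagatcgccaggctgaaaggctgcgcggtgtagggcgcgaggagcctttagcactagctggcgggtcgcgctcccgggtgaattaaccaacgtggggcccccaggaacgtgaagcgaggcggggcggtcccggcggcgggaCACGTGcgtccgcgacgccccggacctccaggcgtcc
A match is a description of letters in the window and says nothing about binding.

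Lists of genes written down for muscle, its clock and its other cells were read beside the 24 by their counts past edgeR's threshold, to be set against 1.83% of all genes tested, with a median log2 fold change of -0.00. Of 11 genes of lipid handling, 5 were tested and 0 passed, with a median log2 fold change of 0.72, and their facing genes gave 2 tested and 1 past it, *Zcchc17*, which was selected on the same values. This median of the 5 is the value of *Fabp3*, given above as the gene facing *Zcchc17*. *Lpl*, alone of the 5, had a negative log2 fold change (-0.33). It was the most abundant at 37.6 normalized counts on average, and the list summed to 105, 142 and 89.7 in control muscle against 139, 161 and 143. These sums overlapped between the genotypes. Among 9 fast fiber genes, all tested, *Mylpf* and *Pvalb* were higher (median 0.46), but both met the selection and are among the 4 genes left out by name, so that this is no independent result, and of their 4 facing genes *Myhas* was lower (adjusted p = 0.0447, lost in 9 of its 13 alternatives, over which it ranged from 4.15e-09 to 0.229). *Myh4* had the most counts of the 9, with 8743 normalized counts on average, whereas of the facing genes *Rabep2* had 270098. The 9 genes summed to 14923, 18979 and 17527 normalized counts in control muscle against 20085, 20523 and 23227, above every control library, and their part in the values of the 24 genes was not tested. The 4 facing genes summed to 473550, 466910 and 496730 against 477490, 420500 and 427460. Of the 8 slow fiber genes 2 were tested, with 0 past the threshold and *Tnni1* at 0 counts. The clock genes driven through E-boxes gave 6 tested genes, of which *Nr1d1* was higher and *Wee1* lower, and 5 tested facing genes, of which *Sphk2*, *Thra* and *0610040F04Rik* were lower, compared with the 1.83% of all genes tested that passed in either direction. The medians were -0.10 for the 6 and -0.92 for the 5. *Thra* (log2 fold change -0.92, edgeR adjusted p = 6.99e-05) faces *Nr1d1* over 263 bp. *Sphk2* faces *Dbp* over 539 bp, and *0610040F04Rik* faces *Bhlhe40* over 118 bp. The call of *Nr1d1* was lost without iMS*Bmal1*-/- replicate 1 or 2 (adjusted p from 0.00202 to 0.078 over its alternatives). In the lists of RORE-driven clock genes (1 tested), denervation and atrophy (3), glucocorticoid and FoxO targets (1), protein folding and stress (4) and glycogen and glucose (7), 0 genes passed the threshold, and neither did any of their facing genes.

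Most markers of other cell types had few counts on their own rows, with *Alas2*, *Csf1r*, *Tek* and *Tagln* as the main exceptions. Since fast fiber genes were also far below their facing genes, low counts do not show that these cells were few. The 8 lists for adipocytes, macrophages, fibroblasts, endothelium, blood, nerve and Schwann cells, satellite cells and smooth muscle hold 45 genes, of which 12 were tested and 0 passed the threshold by edgeR or DESeq2, with 2, *Csf1r* (log2 fold change -0.41) and *Emcn* (-0.66), at an unadjusted p under 0.05, compared with 11.9% of all genes tested. Of the 45, *Cd68* and *Dcn*, neither of them tested, were above and *Emcn* was below every control library in all 3 iMS*Bmal1*-/- libraries. The share of all genes that separate in this way was not counted, so nothing is read from these genes. Of the genes that face the markers 3 were tested and 0 passed, and for adipocytes, endothelium, nerve and satellite cells no facing gene was in the tables. Macrophage markers were read beside *Slc15a3* and summed to 168, 175 and 117 normalized counts in control muscle against 124, 100.3 and 128, of which *Csf1r* held nearly all (127 on average) and *Adgre1* was at 0. The sum is thus mainly the value of *Csf1r*, which *Hmgxb3* (3.06 on average) faces over 873 bp. *Lyz2*, *C1qa*, *C1qb* and *Mrc1* had at most 1 count in a library. *Cd68*, the next in counts, had 6, 4 and 3 counts against 7, 6 and 10. The part of these markers in the values of *Slc15a3* was not tested. Endothelial markers, read beside *Hspg2*, summed to 171, 161 and 189 against 158, 168 and 106, led by *Tek*. *Emcn* had 31.9, 26.6 and 27 normalized counts against 22.5, 14.5 and 15.4, whereas *Cdh5* had a log2 fold change of 0.47, and their part in the values of *Hspg2* was not tested. The macrophage and the endothelial sums overlapped between the genotypes. Nerve and Schwann cell markers, led by *S100b*, summed to 12.4, 14.9 and 17.5 against 36.9, 12.1 and 14.5, so that iMS*Bmal1*-/- replicate 1 was high. Smooth muscle markers, led by *Tagln*, were at 84.5, 68.2 and 80.2 against 61.1, 66.5 and 62.7, below every control library, and the part of this in the values of the 24 genes was not tested. *Tagln* had 48.9 normalized counts on average and *Gm48529*, which faces it over 1241 bp, 474. With *Pcsk7* it summed to 547, 678 and 385 against 419, 503 and 493, and these sums overlapped. The fibroblast sum, led by *Col3a1*, was 55.6, 89.5 and 39.7 against 51.2, 99.1 and 60.7. The blood list summed to 315, 344 and 383 against 439.5, 348 and 334, nearly all of it *Alas2* (357 on average), while the globin genes *Hba-a1*, *Hba-a2*, *Hbb-bs* and *Hbb-bt* had at most 3 counts in a library. Adipocyte markers, led by *Fabp4* and with *Lep* and *Ucp1* at 0, summed to between 16.5 and 25.4 in the libraries, and satellite cell markers, led by *Cdh15* and with *Chodl* at 0, to at most 7.25.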

How the data were processed

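The 6 libraries of TA muscle RNA were assigned to mice by their labels, with 0 columns left unassigned. With HISAT2 (mm10) and HTSeq, the authors aligned and counted the reads and deposited the raw counts of 52636 genes, which are whole numbers without normalization. They also deposited a normalized signal per gene, the count divided by a DESeq2 size factor of each library (from 0.828 to 1.26), and this is the normalized count in the text. Versions and the strand setting of the counting are not given in the sources used here.

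The members and lists were chosen with earlier results of these data known. The named genes were the selected genes, their facing genes with a mean of at least 10 normalized counts, the opposite-strand gene within 10 kb where no exon faces, the 3 genes on each side of the fold criterion (1 of them is not reported here), and the most abundant and called genes of the lists. Facing genes are GENCODE release 21 genes (GRCm38) whose exons overlap by at least 1 bp on the other strand, and 147 identifiers were not found there. Genotypes were compared with edgeR 4.0.16 (TMM, its filter on low counts, quasi-likelihood test, two-sided, Benjamini-Hochberg over 6831 genes) under R 4.3.3. The biological coefficient of variation was 14.8%. The alternatives were DESeq2 1.42.0, limma 3.58.1 on log2 of the normalized value plus 1 or 0.5, no filter, at least 10 counts in every library, upper-quartile normalization, a replicate block, leaving out each of the 6 libraries, and other overlaps and thresholds of the rule. Each test was first tried on simulated counts. Within a genotype no library repeated another (chi-square over its degrees of freedom, 3.25 to 13.3). A count of 0 allows up to 3 counts, for counting error only.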

Additional observations from a re-analysis of the deposited data

How the results depend on the processing

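The number of genes that differed between the genotypes was 125. It was 219 without a filter on low counts and 220 with the replicate block, and with a library left out it lay between 60 and 109, the lowest without iMS*Bmal1*-/- replicate 2. In their deviations from the group means, same-numbered libraries had correlations of -0.0373, -0.0166 and -0.0289, and differently numbered ones from -0.00402 to 0.0353. These values gave no sign that the replicate numbers pair the mice, but with 3 libraries per genotype they cannot settle it. The number of facing genes past the threshold was 0, and 1 without a filter, with the replicate block, or with opposite-strand genes within 10 kb, and 0 to 1 with a library left out. *Gm17251* was past it without the filter (adjusted p = 3.92e-05) and with the block (0.0241). The sign of *Gm46367* turned, to 0.0059 with at least 10 counts in every library and 0.0058 with upper-quartile normalization, and its log2 fold change ranged from -0.081 to 0.10 with a library left out, all within its error. The cause was not tested. The number of selected genes was 37 at a fold of 1.5, 8 at 2, 50 with a mean of at least 25 and 9 with a mean of at least 100, and 23 to 39 with a library left out, highest without iMS*Bmal1*+/+ replicate 2. The other facing genes kept their sign and their side of the threshold under each alternative that gave them an adjusted p, except *Amz2* and *Gm17251*, as given above. *Tmem132a* was not tested with at least 10 counts in every library and had no adjusted p by DESeq2. Depth limits most the 15 selected genes with a mean under 100 normalized counts.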
